A study of Rattus norvegicus with 6 samples.

Results

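Neurod1, Pax6, Isl1, Rfx6, Nkx2-2, Nkx6-1 and Pdx1 encode transcription factors that islet cells use to become endocrine cells and keep on expressing afterwards. They were followed in RNA sequencing of islets of the rat pancreas, the clusters of cells that secrete insulin and other hormones, by their row names in the deposited table, which held all 7 among 18625 named genes. The fetal group was 3 libraries of freshly isolated fetal islet cells from embryonic day 19 (E19). The postnatal group was 3 libraries of neonatal islet cells whose titles give 2 weeks of age, while the age field reads week 2 for replicate 1, week 3 for replicate 2 and week 4 for replicate 3. No strain, treatment or genetic change is named for either group, and the labels do not say whether the libraries are of different animals. The p-values therefore cover the spread among these libraries. That spread may be technical, and in the postnatal group the libraries also differ in labelled age. The question was how the levels of these factors differ between late fetal life and the weeks after birth.

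In the pancreas the transient factor Neurog3 commits a progenitor to the endocrine fate, and the factors described here are expressed in endocrine cells after this step. Neurod1 is a basic helix-loop-helix factor that pairs with an E protein and binds E-boxes, and Rfx6 is a winged-helix factor of the regulatory factor X family. Pax6 combines a paired domain with a homeodomain, Isl1 is a LIM-homeodomain factor, and Nkx2-2, Nkx6-1 and Pdx1 are homeodomain factors, which recognise short sites around the letters TAAT or, for the Nkx2 class, AAGTG. In adult rodent islets Neurod1, Pax6, Isl1 and Rfx6 are found across the hormone cell types and Nkx2-2 in most of them. Nkx6-1 is restricted to beta cells, and Pdx1 to beta and delta cells. Before endocrine commitment Pdx1 and Nkx6-1 mark the progenitor epithelium of the pancreas as well.

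Promoter sequence was at hand for 6 of the 7 genes, from RefSeq on the rat assembly GRCr8, and 4 of the 6 are shown because they cover the genes with the largest rises after birth and the beta cell factor Pdx1. Each line gives the 250 bases before the annotated start in the direction of transcription, with E-boxes (CANNTG) and TAAT cores in capitals on either strand.
Neurod1, chr3:84770455-84770704, reverse strand: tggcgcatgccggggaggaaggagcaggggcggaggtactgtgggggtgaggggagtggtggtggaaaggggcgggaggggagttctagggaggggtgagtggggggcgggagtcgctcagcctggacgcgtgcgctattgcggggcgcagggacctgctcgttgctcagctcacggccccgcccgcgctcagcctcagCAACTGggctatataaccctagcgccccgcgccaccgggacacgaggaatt
Pax6, chr3:112590346-112590595, forward strand: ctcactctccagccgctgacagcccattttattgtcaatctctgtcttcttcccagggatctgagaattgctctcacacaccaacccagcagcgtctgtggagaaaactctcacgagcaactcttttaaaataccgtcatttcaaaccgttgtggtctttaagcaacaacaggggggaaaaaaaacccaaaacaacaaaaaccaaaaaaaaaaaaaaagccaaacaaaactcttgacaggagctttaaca
Isl1, chr2:49823443-49823692, reverse strand: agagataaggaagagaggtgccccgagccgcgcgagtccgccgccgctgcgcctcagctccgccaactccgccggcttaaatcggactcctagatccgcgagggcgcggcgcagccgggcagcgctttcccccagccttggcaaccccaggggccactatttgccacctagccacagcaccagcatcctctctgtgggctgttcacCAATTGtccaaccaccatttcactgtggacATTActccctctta
Pdx1, chr12:12799157-12799406, reverse strand: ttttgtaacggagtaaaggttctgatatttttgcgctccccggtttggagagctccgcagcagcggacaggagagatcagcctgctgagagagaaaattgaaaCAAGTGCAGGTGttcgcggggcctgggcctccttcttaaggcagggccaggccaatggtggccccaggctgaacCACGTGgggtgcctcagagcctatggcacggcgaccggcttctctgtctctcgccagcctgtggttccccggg
The Neurod1 window held 1 E-box, beginning 51 bases before the start, and no TAAT. The Isl1 window held 1 E-box, 44 bases before the start, and 1 TAAT core read on the other strand as ATTA. The Pdx1 window held 3 E-boxes, of which a pair lie directly side by side and the last, 73 bases before the start, has the palindromic form CACGTG. An E-box of this form in the proximal Pdx1 promoter is a known binding site of the ubiquitous factor USF. The Pax6 window, at 42.0% G and C against 69.2% for Neurod1, held neither motif. Of the 6 windows, 4 held CANNTG and 3 held TAAT, where 65.2% and 56.3% of 27457 RefSeq promoters of this length did. Among the 9820 of these promoters whose genes were tested here, the shares were 56.9% and 39.5%. The core AAGTG, in 40.6% of all promoters and 37.6% of those of genes tested, was present in 1 of the 6, that of Pdx1, where it overlaps an E-box. A match is a stretch of letters, and binding was not measured.

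Expression is given as scaled CPM, read counts relative to a library size that had been adjusted between libraries. The libraries held 26.1 to 37.8 M reads before birth and 28.2 to 29.5 M after it, and the 7 genes had from 170 reads (Nkx2-2 in postnatal replicate 1) to 4879 reads (Pax6 in postnatal replicate 3). Markers of other cell types differed between the groups, where 30.0% of all genes tested rose and 33.1% fell after birth. Acinar cell markers, of which 21 of 26 rose and 5 did not pass (among them Cpa1 at 0.47 and the acinar factor genes Rbpjl at -0.13 and Bhlha15 at -0.39 on the log2 scale), took 9.24% to 12.4% of the fetal and 25.6% to 51.4% of the postnatal reads, with the highest share in postnatal replicate 1. General endocrine genes (secretory granule and exocytosis genes shared by islet cell types, called pan-endocrine here) took 0.105% to 0.167% and 0.326% to 0.808%, and 16 of 17 rose. All 11 endothelial and 10 of 13 mesenchymal markers rose, while 7 of 14 duct epithelium markers fell and 1 rose. Of the macrophage and immune markers 6 of 13 rose, and of the Schwann cell and neural markers tested 8 of 12 rose and 3 fell. Erythroid markers fell in 9 of 11 tested, and their share was 0.374% to 1.26% of the fetal and 0.0734% to 0.174% of the postnatal reads. Fetal replicate 2 stood apart in liver transcripts, at 0.882% of its reads against 0.0370% to 0.0467% in the other libraries. How far these shares account for the changes given here was not tested, and in bulk RNA fewer cells of a type cannot be told apart from less RNA per cell.

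None of the 7 genes was lower after birth on the deposited scale, and they fell into a steep and a shallow range of change. Neurod1, Pax6, Isl1 and Rfx6 rose between 2.30-fold and 3.55-fold in the ratio of group means. Pdx1 rose 1.39-fold, and Nkx6-1 and Nkx2-2 did not pass the test. In a limma fit over all 12926 genes tested, 5 of the 7 were called higher and 0 lower at a Benjamini-Hochberg adjusted p under 0.05, where 30.0% of all genes tested were called higher and 33.1% lower. On the deposited scale the same 5 had no overlap between the groups in this direction, as did 33.1% of all genes tested. As a share of all reads, the 7 genes together took 0.0146% to 0.0229% in the fetal libraries. In the postnatal libraries they took 0.0187% to 0.0472%, with the lowest share in replicate 1, so these ranges overlapped (exact permutation p = 0.2). The median log2 fold change of the 7 was 1.15, beside -0.03 for all genes tested.

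Neurod1, the partner of E proteins that activates insulin and other endocrine genes, stood at 16.2, 17.2 and 12.7 scaled CPM in fetal replicates 1, 2 and 3. In postnatal replicates 1, 2 and 3 it stood at 42.7, 48.8 and 72.2. The lowest postnatal library was far above the highest fetal one, and postnatal replicate 3 was the highest of all. The group means were 15.4 ± 2.35 and 54.5 ± 15.6 (SD, n = 3 each), a log2 fold change of 1.74 ± 0.21 (SE; limma adjusted p = 2.90e-04). Among all genes tested, 94.0% had a lower value of the fold change.

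Pax6, which activates glucagon, prohormone convertase and incretin receptor genes, had values of 44.8, 41.1 and 31.1 in the fetal libraries and 94.0, 110 and 167 in the postnatal ones. The groups were separated by a wide gap. Its log2 fold change was 1.61 ± 0.22 (limma adjusted p = 5.82e-04), with means of 39.0 ± 7.07 and 124 ± 38.1 scaled CPM. Pax6 rose almost in parallel with Neurod1: among the 7 genes each was the other's nearest by profile over the 6 libraries, with a root mean square difference of 0.092 on the log2 scale after each gene's own mean was subtracted.

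Isl1, needed for the survival and maturation of islet endocrine cells, stood at 17.6, 17.6 and 13.8 before birth and at 30.6, 38.0 and 56.0 after it. Postnatal replicate 3 was 1.83 times postnatal replicate 1, yet all 3 postnatal libraries were above the fetal range on the deposited scale. The log2 fold change was 1.26 ± 0.22 (limma adjusted p = 0.00159). Rfx6, which sustains calcium channel and glucose sensing genes in beta cells, stood at 27.2, 20.2 and 22.1 in the fetal libraries and at 42.6, 51.1 and 66.0 in the postnatal ones. Here too the groups did not overlap on the deposited scale, and the log2 fold change was 1.15 ± 0.18 (limma adjusted p = 9.69e-04). Relative to all reads of a library, postnatal replicate 1 was below fetal replicate 1 for both genes. Isl1 had 604 of 29.2 M reads in postnatal replicate 1 and 574 of 26.1 M in fetal replicate 1, and Rfx6 had 841 and 886.

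Pdx1, which activates insulin, amylin and glucose transporter genes, stood at 36.3, 32.7 and 31.1 scaled CPM in the fetal libraries. Its postnatal values were 37.2, 45.9 and 56.5. The groups did not overlap on the deposited scale, but postnatal replicate 1 was only just above fetal replicate 1. Relative to all reads it was below it, at 735 of 29.2 M reads against 1183 of 26.1 M. The log2 fold change of 0.45 ± 0.16 (95% interval 0.09 to 0.81) passed the limma test with an adjusted p of 0.0355. This call was the least firm of the 5. It ended when any of fetal replicates 2 and 3 or postnatal replicates 2 and 3 was left out (adjusted p 0.0845 to 0.109 in limma, fold change down to 0.30 without postnatal replicate 3), and when column totals were set equal (0.11, adjusted p = 0.771).

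Nkx6-1, a repressor of the alpha cell program in beta cells and an activator of genes for glucose uptake and insulin processing, stood at 28.4, 20.7 and 18.7 before birth. After birth it stood at 20.5, 32.8 and 45.4. Postnatal replicate 1 was within the fetal range while the other postnatal libraries were above it, and the coefficient of variation of 38.0% was the largest of the 7 genes. The log2 fold change was 0.47 ± 0.28 (95% interval -0.18 to 1.12; limma adjusted p = 0.174), an interval that holds both 0 and the value of Pdx1. Without postnatal replicate 1, the library with the highest acinar share, Nkx6-1 was called higher (0.77, limma adjusted p = 0.0124). It was also called higher when the week in the age field entered the limma fit as a covariate (adjusted p = 0.0349). The week was centred within the postnatal libraries, so the estimate stayed at 0.47 and only the SE changed, from 0.28 to 0.16.

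Nkx2-2, which represses alternative fates and activates beta cell genes, was the flattest of the 7. It stood at 12.7, 7.70 and 8.66 in the fetal libraries and at 8.61, 10.6 and 12.8 in the postnatal ones. The ranges overlapped almost fully, and the highest values of both groups were alike. The log2 fold change was 0.14 ± 0.21 (95% interval -0.35 to 0.63; limma adjusted p = 0.585), an interval that does not reach the estimated rise of Rfx6, the smallest among the first-named 4 genes. After column totals were set equal its sign turned (-0.18, limma adjusted p = 0.667).

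**Figure D1:**
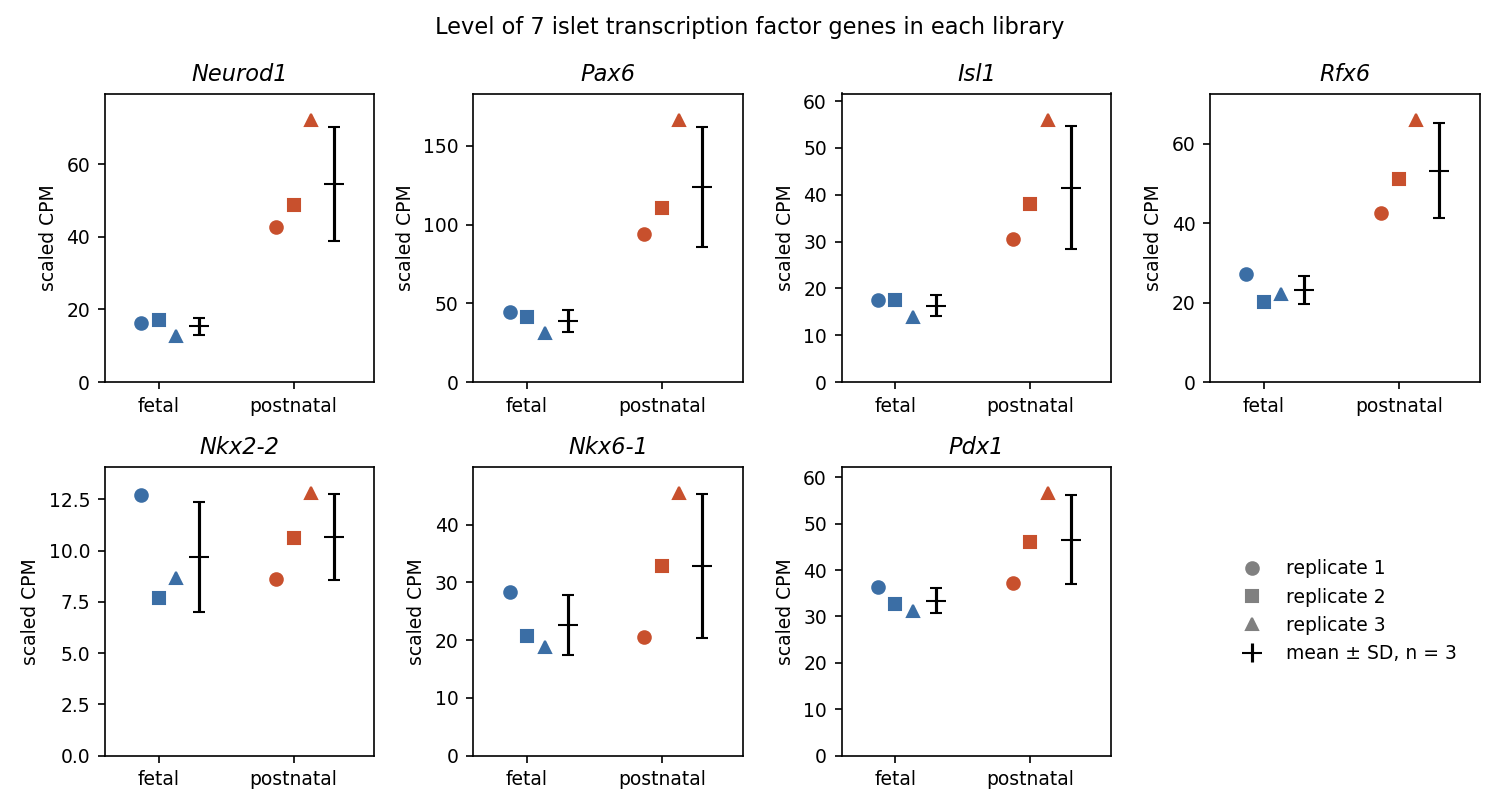
Scaled CPM of each of the 7 genes in the 3 fetal (blue) and 3 postnatal (orange) libraries, with marker shapes for replicate numbers and black bars for mean ± SD (n = 3); each panel has its own linear axis from 0. Neurod1, Pax6, Isl1 and Rfx6 show a clear gap between the groups, Pdx1 a narrow one, and Nkx2-2 and Nkx6-1 overlap.

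The postnatal libraries were in the same order for every gene of the 7, lowest in replicate 1 and highest in replicate 3. That order was found in 2720 of the 12926 genes tested. The labelled ages in the same libraries were 2, 3 and 4 weeks, the acinar share was 51.4%, 28.9% and 25.6%, and the pan-endocrine share was 0.326%, 0.542% and 0.808%. Age and these shares cannot be told apart across these 3 libraries. After each library was centred on the pan-endocrine genes, 3 of the 7 genes kept the order, and 1.76% of all genes tested had it. Among fetal libraries, replicate 1 was the highest for 6 of the 7 genes and replicate 3 the lowest for 5.

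The values of these genes moved with the scale on which libraries were compared. Of the 8152 genes called in limma, 47.5% were higher after birth, and this share was 25.9% with equal column totals, 61.2% after rescaling without the 20 highest genes and 63.4% after rescaling without hormone, acinar, erythroid and hepatic genes. The median log2 fold change of all genes tested shifted with it, from -0.03 to -0.36, 0.20 and 0.23. Neurod1 moved from 1.74 to 1.40 with equal column totals and to 2.00 without the hormone, acinar, erythroid and hepatic genes, and Rfx6 from 1.15 to 0.81 and 1.42. Neurod1, Pax6, Isl1 and Rfx6 were called higher under each of the alternatives tried except the centring on pan-endocrine genes described next, under which their signs turned.

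Set against the pan-endocrine genes of the same library, all 7 factors were lower after birth. The mean log2 level of the 17 pan-endocrine genes measured was 5.55, 5.62 and 5.06 in the fetal libraries and 7.16, 7.28 and 7.76 in the postnatal ones, a rise of 1.99. Relative to this mean, Neurod1 stood at -1.39 ± 0.09 before and -1.64 ± 0.07 after birth and Pax6 at -0.10 ± 0.10 and -0.48 ± 0.11 (log2 difference, SD, n = 3). These are the smallest shifts, -0.25 and -0.38. Isl1 and Rfx6 shifted by -0.73 and -0.84.

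Nkx6-1, Pdx1 and Nkx2-2 had the largest shifts of the 7 on this scale. Nkx6-1 went from -0.87 ± 0.27 to -2.39 ± 0.30, Pdx1 from -0.31 ± 0.24 to -1.85 ± 0.11, and Nkx2-2 from -2.02 ± 0.41 to -3.87 ± 0.12. Their differences were -1.52, -1.54 and -1.85. None of the 7 genes had an overlap between groups, and each gave a two-sided p = 0.1 in the exact permutation test, the lowest value within reach of 3 libraries per group (also 0.1 when adjusted over the 7 by Benjamini-Hochberg). The share of all genes without overlap on this scale was not computed. With libraries centred on this mean, the median log2 fold change of all genes tested was -1.85, so a fall is not particular to the 7.

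In the limma fit after the same centring, 5 of the 7 were called lower (Isl1, Rfx6, Nkx2-2, Nkx6-1 and Pdx1) and 0 higher, where 86.8% of all genes tested were called lower and 3.13% higher. The count of 5 is thus no larger a share than the background. Neurod1 (-0.18, limma adjusted p = 0.596) and Pax6 (-0.35, adjusted p = 0.316) were not called on that scale. The centring adds the same library shifts to every gene, and the SE of the 7 genes was alike, from 0.31 to 0.33. The SDs of their ratios given above differed more, so these calls do not rest on the spread of each gene's own ratio.

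The mean of the pan-endocrine list was raised by a few genes with very large rises. Single genes of the list ranged from Chgb, encoding the granule protein chromogranin B, at 0.27 ± 0.22, to Pcsk1n, encoding an inhibitor of prohormone convertase 1, at 3.87 ± 0.26, with a median of 1.56. Neurod1 and Pax6 were exceeded by 8 of the 17 genes and lay near the middle of the list. Isl1 was exceeded by 11 and Rfx6 by 13. Nkx6-1 and Pdx1 were exceeded by 16, all but Chgb, and Nkx2-2 by all 17.

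**Figure D2:**
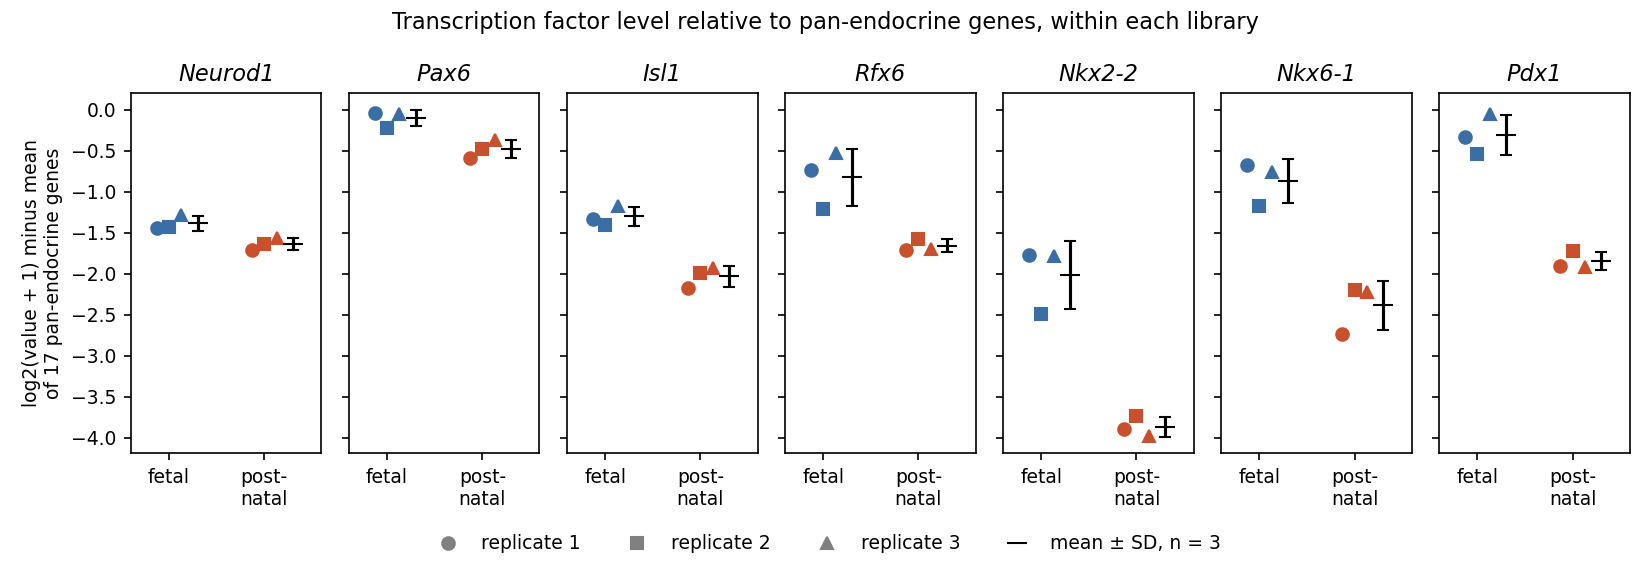
Level of each gene relative to the mean of 17 pan-endocrine genes in the same library (log2 difference), for fetal (blue) and postnatal (orange) libraries, with mean ± SD (n = 3). All 7 genes are lower after birth on this scale, by 0.25 for Neurod1 up to 1.85 for Nkx2-2.

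**Figure D3:**
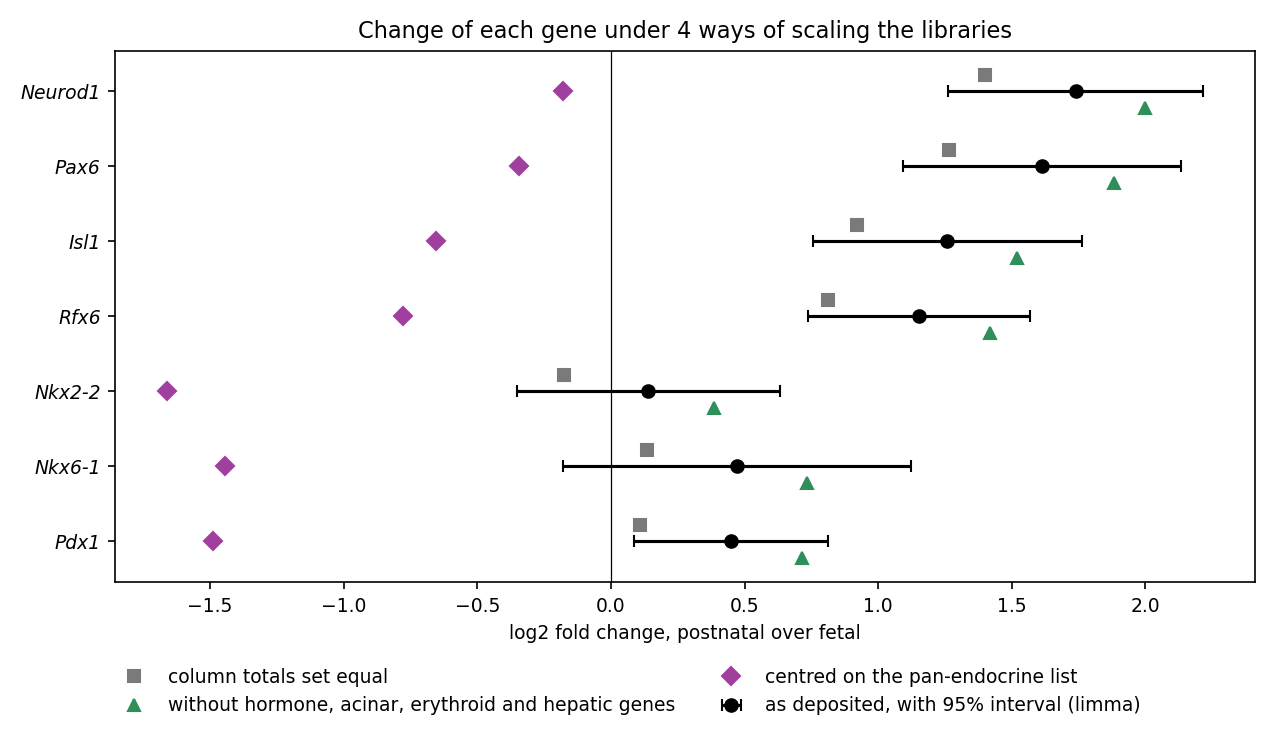
Log2 fold change of each gene (postnatal over fetal) as deposited, with its 95% limma interval, and as points under 3 other scalings. A scaling moves all genes of a library together, so apart from the pseudocount the order of the genes cannot change. The values shift from 1.74 to -0.18 for Neurod1 between the deposited scale and the pan-endocrine centring.

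The ratio of one factor to another within a library does not depend on library scaling beyond the pseudocount, and these ratios changed as well. Of the 21 pairs, 18 had no overlap between fetal and postnatal libraries. How often pairs of other genes tested are without overlap was not computed, so the count is not shown to be particular to these factors. In all 12 pairs of Neurod1, Pax6, Isl1 or Rfx6 with Nkx2-2, Nkx6-1 or Pdx1, the ratio was higher after birth in every postnatal library, by 0.68 (Rfx6 to Nkx6-1) to 1.60 (Neurod1 to Nkx2-2) on the log2 scale. This division of the 7 genes was made after their values were seen. Each of the 12 had an exact permutation p of 0.1, the smallest possible (0.117 after Benjamini-Hochberg adjustment over the 21 pairs), and the pairs share genes and libraries.

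Neurod1 over Pdx1 shows what such a ratio looks like in the libraries. Its log2 value was -1.12, -0.89 and -1.23 in fetal replicates 1, 2 and 3, and 0.19, 0.08 and 0.35 in postnatal replicates 1, 2 and 3. The ratio was higher in every postnatal library than in any fetal one. Levels of different genes also reflect transcript length, which was not used here, so only the change in a ratio is read. The 3 pairs whose groups overlapped were Isl1 to Rfx6 (0.11, exact permutation p = 0.6), Nkx2-2 to Nkx6-1 (-0.33, exact permutation p = 0.2) and Nkx6-1 to Pdx1 (0.02, exact permutation p = 0.9). Within the steep group, the ratio of Neurod1 to Isl1 was higher after birth by 0.48 and that to Rfx6 by 0.59, without overlap, and the ratio of Nkx2-2 to Pdx1 changed by -0.31.

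**Figure D4:**
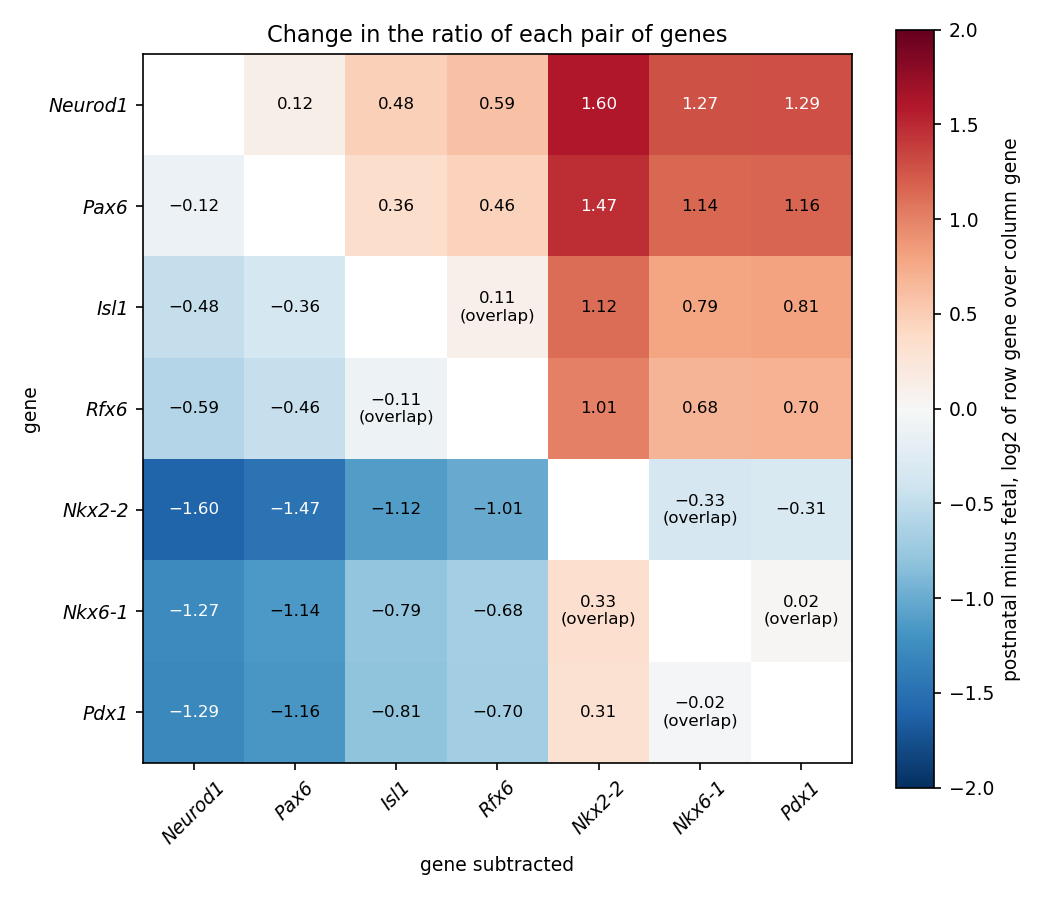
Change after birth in the log2 ratio of the row gene to the column gene, for every pair of the 7 genes (21 pairs, each shown with both signs); cells marked overlap have fetal and postnatal values that overlap. The block of Neurod1, Pax6, Isl1 and Rfx6 over Nkx2-2, Nkx6-1 and Pdx1 runs from 0.68 to 1.60.

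Around these 7 genes, the other islet transcription factors moved in both directions. Of 37 measured, 35 were tested, and 13 rose, 9 fell and 13 did not pass, with a median log2 fold change of 0.20. Among all genes tested 30.0% rose and 33.1% fell, so movement in both directions is not particular to this list. The largest rises were those of Mafa, the beta cell maturity factor, from 3.09 ± 1.43 to 39.1 ± 9.75 scaled CPM (log2 fold change 3.33 ± 0.28), of the Iroquois factor gene Irx1 (2.35 ± 0.26) and of St18, a zinc finger gene of the Myt1 family (2.29 ± 0.22). Equal column totals gave 7 rises and 11 falls among 34 factors tested, where 1780 of all 12863 genes tested rose and 5088 fell. Centring on the pan-endocrine genes gave 2 rises and 28 falls, with St18 no longer called. On that scale 3.13% of all genes tested rose and 86.8% fell. Neurod1 was exceeded by 5 of the 35 factors, Nkx6-1 and Pdx1 by 14 and Nkx2-2 by 19.

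The falls in that list were led by factors of progenitors and of the early endocrine lineage. Neurog3 fell from 19.0 ± 2.61 to 0.438 ± 0.0793 (-3.79 ± 0.15) and Pax4, an early beta and delta lineage factor, from 7.08 ± 0.434 to 0.296 ± 0.0810 (-2.64 ± 0.14). Ptf1a, the acinar and multipotent progenitor factor, fell by 3.16 ± 0.31. Foxa2, the pioneer factor upstream of Pdx1, was at 53.5 ± 4.41 and 52.2 ± 6.38 and was not called.

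**Figure D5:**
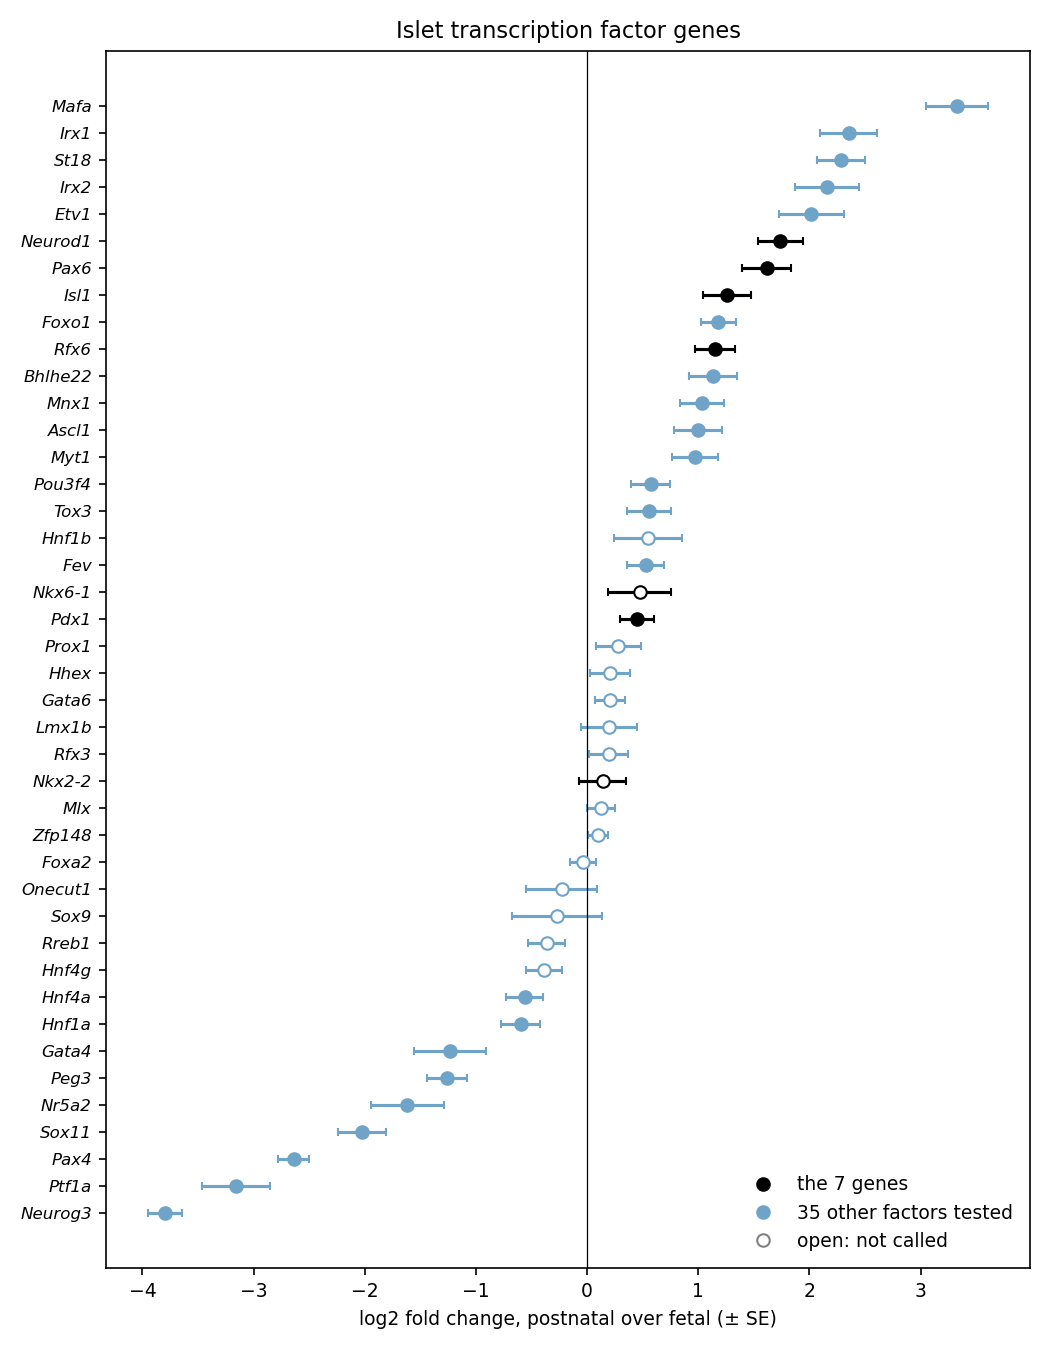
Log2 fold change after birth (± SE, limma) of the 7 genes (black) and of 35 other islet transcription factor genes tested (blue), in order of size; open symbols did not pass at an adjusted p under 0.05. The 7 genes lie between 0.14 and 1.74, inside the span from Neurog3 at -3.79 to Mafa at 3.33.

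Genes for proteins that these factors bind or recruit also moved in both directions. Of 33 measured and tested, 8 rose, 12 fell and 13 did not pass, with a median of -0.20, beside 30.0% higher and 33.1% lower among all genes tested. The largest falls were Id1 (-2.19 ± 0.19) and Id2 (-1.70 ± 0.17), whose products sequester the E proteins that Neurod1 pairs with, and the DNA methyltransferase gene Dnmt1 (-1.35 ± 0.10). Id3 was at 88.8 ± 10.7 and 71.7 ± 19.4 and Id4 at 25.0 ± 3.04 and 32.4 ± 7.55, and neither was called. Tcf4, an E protein gene, rose by 0.82 ± 0.13. The largest rises were Setd7, a lysine methyltransferase gene whose product Pdx1 recruits (1.83 ± 0.22), Smarca2, a chromatin remodelling ATPase gene (1.39 ± 0.12), and Ldb2 (1.07 ± 0.20). Smarca4, the alternative ATPase gene, fell by 1.10 ± 0.12. Ldb1, the adaptor through which Isl1 acts, rose by 0.26 ± 0.09, and Ssbp3, a subunit of the same complex, fell by 0.34 ± 0.12. Each of these calls had a limma adjusted p between 4.30e-05 and 0.0391. With equal column totals 2 partner genes rose and 15 fell, where 1780 of all 12863 genes tested rose and 5088 fell. The sign of Ldb1 then turned (-0.09) and Tcf4 and Ldb2 were no longer called. Rescaling without the 20 highest genes gave 12 rises and 8 falls and ended the call of Ssbp3, where 5065 of all 12939 genes tested rose and 3213 fell. After centring on the pan-endocrine genes 0 rose and 31 fell, where 3.13% of all genes tested rose and 86.8% fell. Every rise named here, that of Setd7 included, then had the opposite sign.

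Genes known as targets of the 7 factors rose more than the factors did. Of 19 measured, 17 rose and 0 fell, with a median log2 fold change of 2.18, where 30.0% of all genes tested rose and 33.1% fell. The 3 largest rises were those of the hormone genes Sst (5.52 ± 0.36), Gcg (5.32 ± 0.53) and Ins1 (4.35 ± 0.49). Pc, encoding pyruvate carboxylase, and Nnat, encoding neuronatin, did not pass, at 50.3 ± 7.32 and 44.9 ± 5.31 and at 122 ± 29.2 and 106 ± 26.3. Neurod1 was exceeded by 14 of the 19 targets, Pax6, Isl1 and Rfx6 by 15, and Nkx2-2, Nkx6-1 and Pdx1 by 17. Equal column totals left 15 rises and 0 falls, where 1780 of all 12863 genes tested rose and 5088 fell. Centring on the pan-endocrine genes gave 8 rises and 4 falls, where 3.13% of all genes tested rose and 86.8% fell. The targets were chosen with earlier results of these libraries known.

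Relatives of the 7 genes were mostly silent or low. Of 28 measured genes of the same families, 21 stayed under the test's minimum, none of them above 1.26 scaled CPM in any library, and 6 of those had no read at all. Of the 7 tested, 4 rose, 1 fell and 2 did not pass, where 30.0% of all genes tested rose and 33.1% fell. Nkx6-2, the close relative of Nkx6-1 that is expressed in the early pancreatic epithelium, fell from 3.48 ± 1.55 to 0.330 ± 0.107 scaled CPM (-1.70 ± 0.25; limma adjusted p = 7.81e-04). Rfx2, which is related to Rfx6, rose by 1.67 ± 0.23, and Nkx2-3 by 1.04 ± 0.20. Nkx2-1, known from thyroid, lung and forebrain, rose by 0.58 ± 0.18, from 8.46 ± 0.434 to 13.4 ± 3.18. Nkx2-3 and Nkx2-1 were no longer called with equal column totals and turned in sign after the pan-endocrine centring, which also ended the call of Rfx2.

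Of all genes tested, those with profiles nearest to each factor were found by the root mean square difference of log2(value + 1) over the 6 libraries, each gene's mean subtracted. Nearest to Neurod1 was Nrcam, a neuronal cell adhesion gene, at 18.1, 19.5 and 14.5 before birth and 49.2, 53.7 and 80.3 after it, a difference of 0.021 on the log2 scale. The next was Pla2g2c, a secreted phospholipase gene (0.059). For Pax6 the nearest 2 genes were Ric3, a chaperone gene of acetylcholine receptors (0.053), and Syt13 (0.070). Ric3 too was low, at 1.02 to 1.60 before birth and 4.76 to 9.36 after it. For Isl1 they were Hepacam2 (0.065) and the phosphodiesterase gene Pde3b (0.069), and for Rfx6 the motor adaptor gene Bicd1 (0.052) and Carmil3 (0.062).

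For Nkx2-2 the nearest 2 genes were Snx32 (0.089) and Arnt2 (0.097), and for Pdx1 LOC100910636 (0.046) and Wdr5b (0.050). Nearest to Nkx6-1 were Arc (0.091) and Egr2 (0.116), both immediate early genes that cells switch on within minutes of stimulation. Arc stood at 8.57, 5.81 and 5.15 in the fetal and 6.83, 10.1 and 15.7 in the postnatal libraries, with its highest fetal value in replicate 1 and its highest postnatal value in replicate 3, as for Nkx6-1. Arc was picked for its likeness over these same libraries, so the shared pattern is not a separate observation. The 6 libraries form 2 groups, so this measure holds the group difference as well as the spread within groups.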

How the data were processed

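Total RNA of 6 rat islet libraries was sequenced from ribosome-depleted, stranded libraries, per the labels' protocols. TopHat2 2.0.8b and edgeR 3.30.3 are named without roles, per the submitters' processing notes; no source used here gives the genome build, annotation, counter or strand setting, so reads of overlapping or antisense genes cannot be separated. The authors deposited a normalized signal per gene with no unit in its header. Each deposited value is a whole number of reads times 1 constant per library (100% whole within 0.001 reads), and the implied library sizes were 0.677 to 1.25 times the recovered reads, so the signal is called scaled CPM here. A row without a name (1 to 9 reads per library, at most 3.19e-05%) was left out.

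Libraries were grouped by title. Log2(value + 1) was fitted with limma 3.58.1 in R 4.3.3 with a mean-variance trend and the group as the sole term, for genes that reached 1 in 3 or more libraries. Two-sided p-values, Benjamini-Hochberg adjusted over all genes tested, were called under 0.05. Fold changes on this scale understate those of low genes. Ratios within libraries were compared by exact permutation tests. The recovered reads were also tested with edgeR 4.0.16 and with DESeq2 1.42.0. The limma script was tested on simulated reads. Replicates differed beyond sampling noise, with a chi-square of 47.7 to 386 per degree of freedom, and each counts as 1 sample. Of 295 list entries, 265 were matched, with older symbols through a RefSeq table of GRCr8. The rule for named genes took the 7 genes, 6 further factors (some of them not reported here), the 3 largest rises and falls of each list and the 2 nearest profiles and measured chromosome neighbours of each gene; other genes named were chosen after their values were seen. The 7 genes and all lists were chosen with earlier results of these data known.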

Additional observations from a re-analysis of the deposited data

How the results depend on the processing

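Over 23 alternatives, Neurod1, Pax6, Isl1 and Rfx6 kept their direction and their call under all but the centring on pan-endocrine genes. Under that centring the log2 fold changes were -0.18, -0.35, -0.65 and -0.78, and those of Nkx2-2, Nkx6-1 and Pdx1 were -1.66, -1.44 and -1.49. Of the 7 genes 0 were then called higher and 5 lower, and of all genes 408 and 11310. With equal column totals 1780 of all genes were called higher, Nkx2-2 was at -0.18 and Pdx1 at 0.11, no longer called. The Pdx1 call also ended without a filter on low values (0.45, limma adjusted p = 0.05001) and with the replicate number as a block (0.45, limma adjusted p = 0.0724). Nkx6-1 became called with the labelled week as a covariate (0.47) and without both fetal replicate 2 and postnatal replicate 1 (0.72). Leaving out 1 library at a time gave 0.30 to 0.60 for Pdx1, 0.21 to 0.77 for Nkx6-1 and 0.004 to 0.33 for Nkx2-2. The replicate block changed no other call among the 7 genes. Replicate numbers are shared labels only: deviations of same-numbered libraries correlated at -0.21, 0.10 and -0.25, and no library correlated best with its own number. For these changes the cause was not tested. Pairs without overlap numbered 17 to 20 of 21, and the ratios to the pan-endocrine level kept their sign, over 10 alternatives. Each of the 7 genes had 170 reads or more in every library.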

Other observations

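The nearest measured protein-coding genes on the chromosome, by RefSeq order on GRCr8, behaved differently from gene to gene. Beside Isl1, Parp8, a mono-ADP-ribosyltransferase gene, rose by 1.58 ± 0.19 on the log2 scale, from 16.9 ± 2.69 to 53.1 ± 12.3 scaled CPM. On the other side, past 5 annotated genes that were not measured, lies Fst, encoding the activin antagonist follistatin. Fst rose by 1.43 ± 0.34 at a low level, from 0.507 ± 0.708 to 2.88 ± 0.981, with fetal values of 1.32, 0.17 and 0.03. Beside Neurod1, Cerkl rose by 1.48 ± 0.23, from 2.78 ± 0.488 to 9.81 ± 3.22, while Itprid2 on the other side stood at 129 ± 6.66 and 170 ± 51.3 and was not called. Cds1, a phospholipid synthesis gene beside Nkx6-1, rose by 1.41 ± 0.19, and Gpat3 on the other side by 0.74 ± 0.27, a call that ended with equal column totals. Centring on the pan-endocrine genes turned the signs of Parp8, Cerkl, Cds1 and Gpat3. Beside Pax6, Rcn1 (past 1 gene not measured) fell by 0.73 ± 0.11. Immp1l (past 2 such genes), at 16.4 ± 2.88 and 14.5 ± 3.33, was not called. The measured neighbours of Rfx6, Nkx2-2 and Pdx1 were at or close to 0: Gprc6a, Vgll2, Nkx2-4, Pax1, Cdx2 and Gsx1 reached at most 0.307 scaled CPM, the value of Cdx2 in fetal replicate 1.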
